A study of Mus musculus with 2 samples.

Results

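The miR-181 family of mouse consists of 6 microRNA genes, and all 6 were found among the 1973 microRNA genes counted in embryonic lung. Its members were chosen by name: Mir181a-1, Mir181b-1, Mir181a-2, Mir181b-2, Mir181c and Mir181d, matched by identifier to GENCODE release M21. They lie in 3 clusters of 2 genes, on chromosomes 1, 2 and 8, and the question was how the counted reads are spread over these clusters and over the members of each.

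Small RNA (under 30 bases) was sequenced from healthy lungs of B6NCrl mouse embryos at embryonic day 16.5. The study has a single group of 2 libraries, biological replicates 1 and 2, each made from a pool of lungs of both sexes. The labels give 41 embryos for replicate 2 and no number for replicate 1. The labels name no altered gene and no agent. Both replicates name the same donor record, and a pool of whole lungs holds every cell type of the organ, so a lower level cannot be split into fewer cells of a type and less RNA per cell.

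MicroRNA genes are transcribed into long primary transcripts, from which a hairpin is excised and then cut to a duplex of a 5p and a 3p arm. One arm is usually kept by an Argonaute protein and guides it to messenger RNAs, chiefly through the seed, bases 2 to 8 of the arm. Members of the miR-181 family share the seed of their 5p arms, are best known from developing T cells, where miR-181a tunes the sensitivity of antigen receptor signalling, and from endothelium, where miR-181b restrains NF-kB signalling.

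The 4 distinct 5p arms of the family are shown first because they carry the shared seed, which is in capitals; they come from RefSeq on GRCm38.p6, where all 6 genes matched.
miR-181a-5p (Mir181a-1 and Mir181a-2): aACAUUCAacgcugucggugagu
miR-181b-5p (Mir181b-1 and Mir181b-2): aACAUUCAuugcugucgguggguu
miR-181c-5p (Mir181c): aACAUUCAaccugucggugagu
miR-181d-5p (Mir181d): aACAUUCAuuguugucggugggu

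The seed ACAUUCA was found in 4 of 1679 mature microRNAs of the RefSeq table, and these 4 are the 5p arms above. Counted from 1 at the 5′ end, miR-181d-5p differs from miR-181b-5p by the single substitution C12U over 23 bases. From miR-181a-5p to miR-181b-5p there are 3 substitutions, A9U, C10U and A21G. The 22 bases of miR-181c-5p are those of miR-181a-5p with the base at position 11 left out.

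The 6 distinct 3p arms are shown with their seeds in capitals because they, and not the 5p arms, tell the copies of one name apart.
miR-181a-1-3p (Mir181a-1): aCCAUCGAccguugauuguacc
miR-181a-2-3p (Mir181a-2): aCCACCGAccguugacuguacc
miR-181b-1-3p (Mir181b-1): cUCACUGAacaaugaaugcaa
miR-181b-2-3p (Mir181b-2): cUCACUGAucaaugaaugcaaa
miR-181c-3p (Mir181c): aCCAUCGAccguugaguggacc
miR-181d-3p (Mir181d): cCCACCGGgggaugaauguca

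These arms hold 4 seeds. The 3p arms of Mir181a-1 and Mir181c share the seed CCAUCGA and differ by U16G and U19G. The 3p arm of Mir181a-2 differs from that of Mir181a-1 by U5C, which lies in the seed, and by U16C. The 3p arms of Mir181b-1 and Mir181b-2 share the seed UCACUGA and differ by A9U over 21 compared bases.

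The hairpins of the a and b genes are shown because each pair holds one long shared run, in capitals, which includes the whole 5p arm.
Mir181a-1 (chr1:137966455-137966541, plus strand): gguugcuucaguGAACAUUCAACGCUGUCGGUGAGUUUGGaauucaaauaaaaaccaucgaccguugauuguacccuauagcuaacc
Mir181a-2 (chr2:38852735-38852810, plus strand): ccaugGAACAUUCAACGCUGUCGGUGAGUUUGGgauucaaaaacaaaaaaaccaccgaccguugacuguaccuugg
Mir181b-1 (chr1:137966639-137966718, plus strand): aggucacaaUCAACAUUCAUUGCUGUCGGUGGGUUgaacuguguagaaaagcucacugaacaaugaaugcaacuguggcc
Mir181b-2 (chr2:38853830-38853918, plus strand): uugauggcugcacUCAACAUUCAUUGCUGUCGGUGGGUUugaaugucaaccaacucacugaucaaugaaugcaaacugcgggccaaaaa

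The run shared by Mir181a-1 and Mir181a-2 is 28 bases long and reaches 1 base before and 4 bases past the 23 bases of the 5p arm. That of Mir181b-1 and Mir181b-2 is 26 bases long and reaches 2 bases before the 24 bases of the arm and 0 bases past it. A read made of exactly the 5p arm therefore matches 2 hairpins for each of these 4 genes. The arms of Mir181c and Mir181d were found in no other hairpin of the counted genes, and their longest run shared with any other member was 17 bases and 13 bases. The deposited tables keep reads that match several loci on a line of their own, outside the gene counts. That line held 3856768 reads in replicate 1 and 2684057 in replicate 2, which is 63.0 and 71.7 times the counted reads of the whole family. Reads of exactly a shared 5p arm would fall on that line and not in the gene counts of the 4 a and b genes. Both arms of Mir181c and Mir181d can be counted, so the levels below compare unlike parts of the genes. How many of the reads on that line are miR-181 reads, and their part in the levels below, was not tested.

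**Figure D1:**
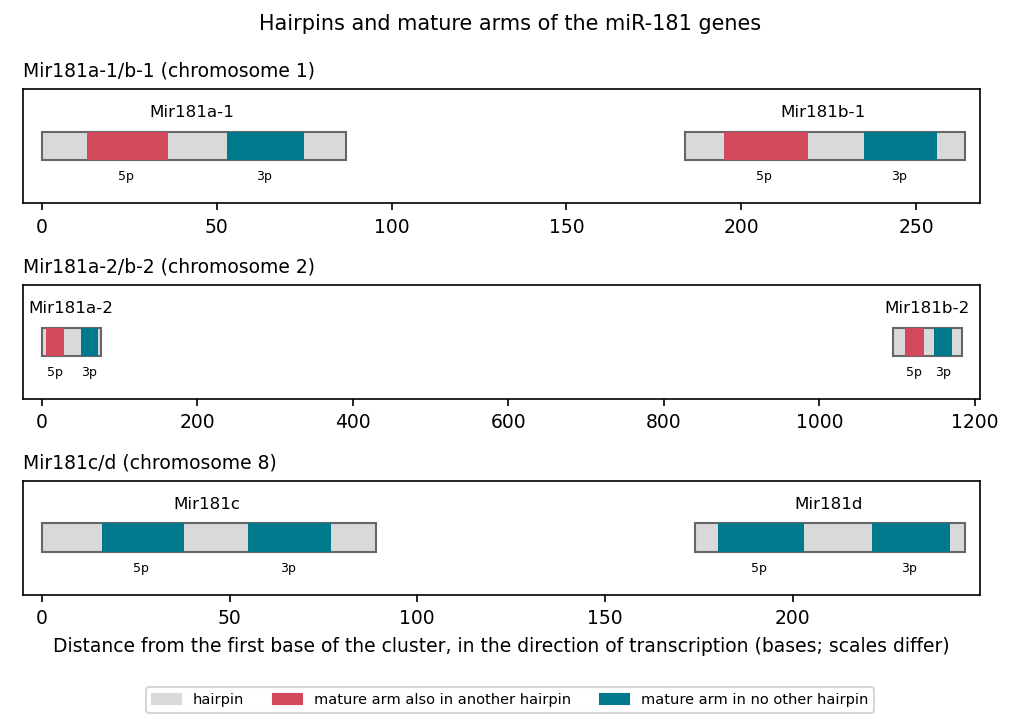
Hairpins (grey) and mature arms of the 3 clusters, drawn along the distance in bases from the first base of each cluster in the direction of transcription, with a different scale in each panel. The 5p arms of the 4 a and b genes are also in another hairpin (red), while their 3p arms and both arms of Mir181c and Mir181d are in no other hairpin (green).

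In the mm10 annotation Mir181a-1 (ENSMUSG00000065565.1) and Mir181b-1 (ENSMUSG00000065458.1) are 97 bases apart on the plus strand of chromosome 1, where both overlap an exon of the long non-coding RNA gene A430106G13Rik and lie in an intron of Gm4258, both on the same strand, and opposite to Gm26936. Mir181a-2 (ENSMUSG00000065423.1) and Mir181b-2 (ENSMUSG00000065578.1) are 1019 bases apart on the plus strand of chromosome 2, opposite to introns of the nuclear receptor gene Nr6a1, and Mir181b-2 also lies opposite to an exon of Gm44144. Mir181c (ENSMUSG00000065483.1, chr8:84178873-84178961) and Mir181d (ENSMUSG00000076338.1, chr8:84178716-84178787) are 85 bases apart on the minus strand of chromosome 8, in an intron of Nanos3, a germ cell gene on the same strand. Every member's counted reads lay on its own strand, with 0 reads on the opposite strand in either library, so the genes on the other strand added none.

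The libraries held 6376715 gene counts in replicate 1 and 4123748 in replicate 2, and levels are given as CPM, counts scaled to 1000000 gene counts. A count of 0 would allow up to 0.470 and 0.727 CPM. The lung label was checked against microRNAs of its cell types, which were present at summed levels of 79120 to 87277 CPM for endothelium (Mir126a), 75720 to 78156 for mesenchyme and smooth muscle, 35211 to 36766 for epithelium and 15414 to 19573 for multiciliated cells. Single genes of these lists were very unequal by mean. They ran from 5.65 to 71247 CPM for mesenchyme and smooth muscle, 1028 to 14764 for epithelium and 39.3 to 16513 for multiciliated cells. Of other tissues, the neuron list (5 matched genes, 0 detected) reached at most 3.88 CPM, while the liver microRNA Mir122 was at 111 and 601 CPM. The skeletal and heart muscle list summed to 1079 and 1191 CPM, the thymus and lymphoid list to 1252 and 1374, and the red cell list to 1047 and 660, in replicates 1 and 2. Most of the thymus and lymphoid sum was Mir142b (1149 and 1258 CPM), whose counted reads lay almost all on the strand opposite to that gene.

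All 6 miR-181 genes were detected, meaning at least 10 counts in each library, against 17.6% of the 1973 genes. Together they held 0.960% of gene counts in replicate 1 (95% exact binomial interval 0.953 to 0.968) and 0.908% in replicate 2 (0.899 to 0.917), with a mean of 0.934% ± 0.0371 (SD, n = 2). The Mir181c/d cluster held most of these reads, 72.2% and 71.8% of the family's counts. These and all later intervals and floors cover the counting error of reads only, and not differences between pools or library preparations. The reads also carry no molecular identifiers, so PCR copies count as reads.

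Mir181c, whose mature form has been found in mitochondria of heart muscle, had the most counted reads of the members. It had 25996 counts in replicate 1 and 16743 in replicate 2, which is 4077 CPM (interval 4027 to 4126) and 4060 CPM (3999 to 4122), a mean of 4068 ± 11.7 (SD, n = 2). Its libraries overlapped within counting error, and by mean it ranked at position 44 among all microRNA genes. Mir181d, its neighbour, had 18211 and 10137 counts, or 2856 CPM (2815 to 2898) and 2458 CPM (2411 to 2506), a mean of 2657 ± 281. It lay below Mir181c in both libraries, and it was higher in replicate 1 beyond counting error.

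Mir181a-1, one of the genes that make miR-181a-5p, followed with 9265 and 6675 counts, at 1453 CPM (1424 to 1483) and 1619 CPM (1580 to 1658), a mean of 1536 ± 117 (SD, n = 2). Mir181b-1, which follows it in the same cluster, had only 118 and 64 counts, at 18.5 CPM (15.3 to 22.2) and 15.5 CPM (12.0 to 19.8), a mean of 17.0 ± 2.11. It was the lowest member in both libraries, at 0.193% and 0.171% of the family's counts.

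On chromosome 2 the order was the other way round, with the b gene above the a gene. Mir181b-2 had 7260 and 3528 counts, at 1139 CPM (1112 to 1165) and 856 CPM (828 to 884), a mean of 997 ± 200 (SD, n = 2). Mir181a-2 had 375 and 285 counts, at 58.8 CPM (53.0 to 65.1) and 69.1 CPM (61.3 to 77.6), a mean of 63.96 ± 7.29. Each of the 2 clusters with shared 5p arms thus held one member with a mean of at least 997 CPM and one with a mean of at most 63.96 CPM, and the abundant member was the a gene on chromosome 1 and the b gene on chromosome 2.

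**Figure D2:**
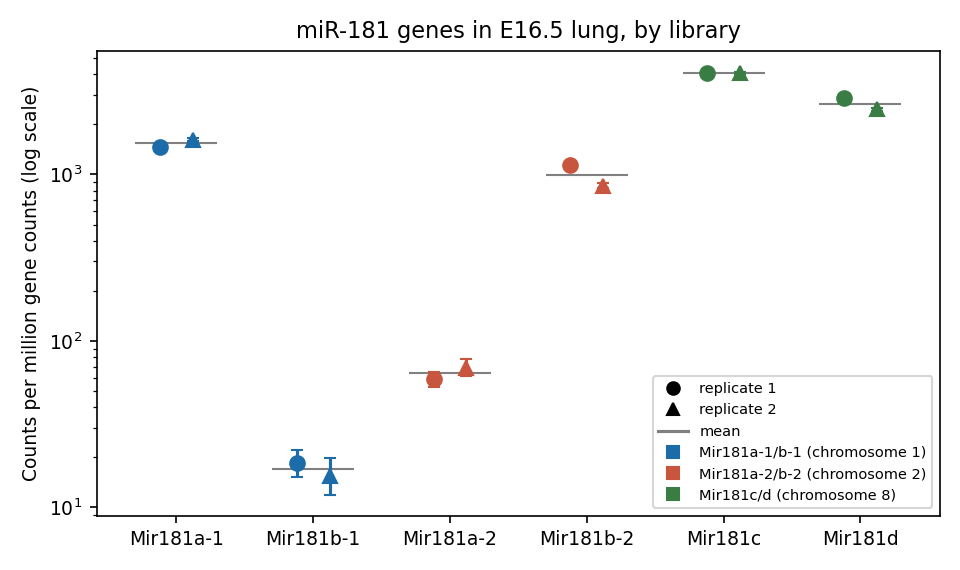
Level of each miR-181 gene in CPM (log axis), with circles for replicate 1, triangles for replicate 2, bars for 95% exact binomial intervals, grey lines for means and one colour per cluster. The levels run from 17.0 CPM for Mir181b-1 to 4068 CPM for Mir181c, and no gene's libraries overlap those of the next gene in order.

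By mean, the order was Mir181c, Mir181d, Mir181a-1, Mir181b-2, Mir181a-2 and Mir181b-1, and it was the same in both libraries. The libraries of each member did not overlap those of its neighbour in this order. Mir181a-1 and Mir181b-2 differed by 1.28-fold in replicate 1 (1.24 to 1.32) and by 1.89-fold in replicate 2 (1.82 to 1.97). Mir181d lay 1.97-fold above Mir181a-1 in replicate 1 (1.92 to 2.02) and 1.52-fold in replicate 2 (1.47 to 1.57). Which of the upper neighbours were closest depended on the library. Below the gap of 19.4-fold and 12.4-fold between Mir181b-2 and Mir181a-2, the last step, from Mir181a-2 to Mir181b-1, was 3.18-fold (2.58 to 3.94) and 4.45-fold (3.39 to 5.94). With 2 values a gene, an exact permutation test of 2 values against 2 cannot give a two-sided p under 0.333. A permutation that keeps the genes paired by library cannot go lower. These differences are therefore set against the spread of the libraries and carry no p.

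**Figure D3:**
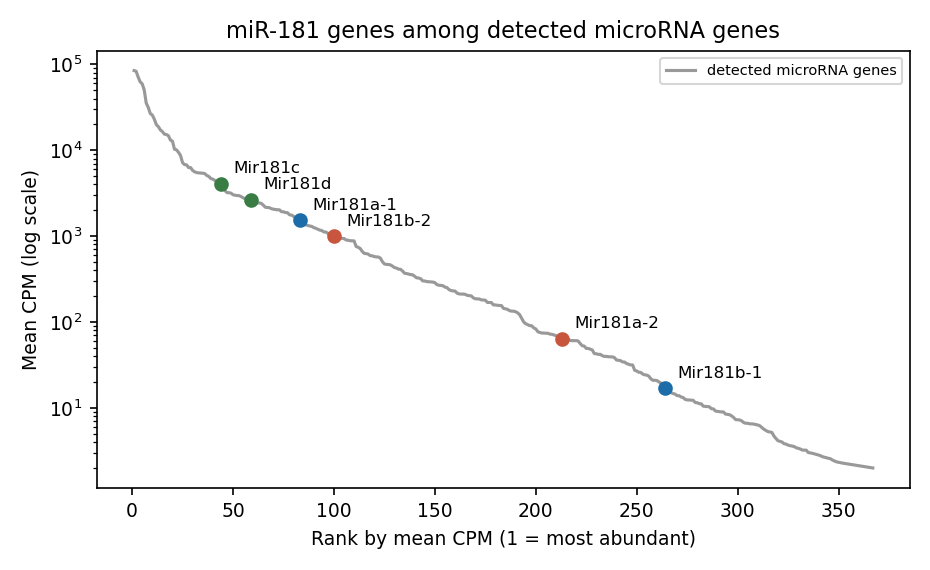
Mean CPM (log axis) of the detected microRNA genes by rank, from the most abundant, with the miR-181 genes marked by cluster colour. Mir181c, Mir181d, Mir181a-1 and Mir181b-2 lie at ranks 44 to 100, while Mir181a-2 is at rank 213 and Mir181b-1 at rank 264.

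Among the 347 detected genes the members spanned a wide range, from percentile 24.2 for Mir181b-1 and 38.9 for Mir181a-2 to 71.5 for Mir181b-2, 76.4 for Mir181a-1, 83.3 for Mir181d and 87.6 for Mir181c. Their median of means was 1266 CPM, beside 180 CPM over all detected genes. Genes nearest to the members over log2(CPM + 1) in the 2 libraries were, for Mir181c, Mirlet7f-2 (4373 and 4167 CPM, distance 0.11) and Mir379 (4473 and 4447, distance 0.19). For Mir181d they were Mir342 (2769 and 2531, distance 0.06) and Mir125a (2669 and 2767, distance 0.20), and for Mir181a-1 the epithelial microRNA Mir205 (1406 and 1665, distance 0.06) and Mir107 (1433 and 1488, distance 0.12). For Mir181b-2 they were Mir135b (1009 and 869, distance 0.18) and Mir301 (1012 and 793, distance 0.20). For Mir181a-2 they were Mir701 and Mir331 (distances 0.06 and 0.12), and for Mir181b-1 they were Mir218-2 and Mir466n (distances 0.19 and 0.24). With 2 libraries this likeness is mainly one of level.

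Summed over its members, the Mir181c/d cluster was at 6933 CPM in replicate 1 and 6518 CPM in replicate 2 (mean 6725 ± 293, SD, n = 2). The Mir181a-1/b-1 cluster was at 1471 and 1634 CPM (1553 ± 115), and the Mir181a-2/b-2 cluster at 1197 and 925 CPM (1061 ± 193). Mir181c/d lay 4.71-fold above Mir181a-1/b-1 in replicate 1 (4.61 to 4.82) and 3.99-fold in replicate 2 (3.88 to 4.10). Its excess over Mir181a-2/b-2 was 5.79-fold (5.65 to 5.93) and 7.05-fold (6.81 to 7.29). The clusters on chromosomes 1 and 2 were closer to each other, at 1.23-fold (1.19 to 1.27) and 1.77-fold (1.70 to 1.84), with chromosome 1 higher in both libraries. These folds compare counts within one library, so the scaling between libraries does not enter them. The clusters also differ in how many of their arms are unique, which is described above, and the part of the shared arms in these folds was not tested.

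Within the clusters the members differed by very unlike amounts. Mir181a-1 lay 78.5-fold above Mir181b-1 in replicate 1 (65.5 to 94.97) and 104-fold in replicate 2 (81.6 to 136). Mir181b-2 lay 19.4-fold above Mir181a-2 in replicate 1 (17.4 to 21.5) and 12.4-fold in replicate 2 (10.97 to 14.0). Mir181c lay only 1.43-fold above Mir181d in replicate 1 (1.40 to 1.45) and 1.65-fold in replicate 2 (1.61 to 1.69). In each case the direction was the same in both libraries, while the folds of the last 2 pairs differed between libraries beyond counting error, their intervals not overlapping.

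For comparison, there were 75 other pairs of detected microRNA genes next to each other on one strand within 2000 bases. Their median fold was 7.09 in replicate 1 and 7.41 in replicate 2. Of these pairs, 5 differed by more than Mir181a-1 and Mir181b-1, 28 by more than Mir181b-2 and Mir181a-2, and 67 by more than Mir181c and Mir181d, by mean log2 fold. As a description, Mir181a-1 and Mir181b-1 were among the most unequal of these neighbours in counted reads, and Mir181c and Mir181d among the most alike. Reads of exactly the 5p arms of Mir181a-1 and Mir181b-1 match several loci, while the arms of Mir181c and Mir181d are unique. Some of the other pairs also hold a gene with a copy at another locus. The part of shared arms in this order was not tested. The pairs use counts without strand. For Mir299b and Gm25750 (2.97-fold and 3.22-fold), nearly all counted reads lay on the strand opposite to the named genes.

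**Figure D4:**
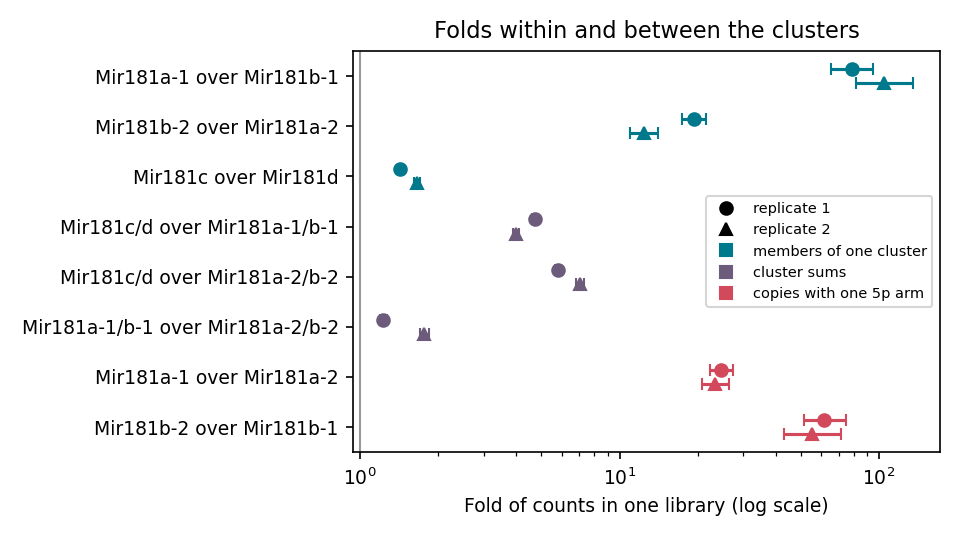
Folds between miR-181 genes or cluster sums within each library (log axis), with circles for replicate 1, triangles for replicate 2 and bars for 95% exact binomial intervals. The pairs of one cluster run from 1.43-fold for Mir181c over Mir181d to 104-fold for Mir181a-1 over Mir181b-1, while the cluster sums differ by 1.23-fold to 7.05-fold.

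The copies that make one 5p arm were also far apart in the counted reads. Reads of exactly that arm match both copies and would be counted for neither. The folds below are therefore not those of the 5p arm made by each copy. Mir181a-1 lay 24.7-fold above Mir181a-2 in replicate 1 (22.3 to 27.5) and 23.4-fold in replicate 2 (20.8 to 26.5), folds that agree within counting error. Mir181b-2 lay 61.5-fold above Mir181b-1 in replicate 1 (51.3 to 74.4) and 55.1-fold in replicate 2 (43.1 to 71.7), again with overlapping intervals.

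Among other microRNAs listed as having copies at several loci, 42 of 48 genes matched the tables and 29 were detected, led by Mirlet7f-2 (4270 CPM ± 146, SD, n = 2) and Mir16-1 (1925 ± 92.0). In 12 of the 19 names with at least 2 matched loci, every locus was detected. Their highest and lowest loci differed by a median of 1.68-fold in replicate 1 (1.20 to 10.9) and 1.69-fold in replicate 2 (1.06 to 10.5). The folds between the copies of Mir181a and of Mir181b lay above those of these 12 names in both libraries. The requirement that every locus be detected leaves out names with very unequal copies, so this is no rank among all names. Of the 7 names left out, 3 had one detected locus and 4 had none. Mir7-1 lay 27.3-fold above Mir7-2 in replicate 1 (16.3 to 49.2) and 33.7-fold in replicate 2 (16.1 to 84.8), values above those of Mir181a with intervals that overlap them. Mir103-2 lay 11.2-fold (7.58 to 17.1) and 32.7-fold (14.7 to 90.1) above Mir103-1, and Mir194-2 lay 21.6-fold (11.9 to 43.9) and 64.5-fold (17.5 to 538) above Mir194-1, which had 11 and 2 counts. The copies of Mir181a and Mir181b were thus not the only unequal ones.

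Over the 916 counted genes with a mature sequence in RefSeq, those whose arms are all unique numbered 819, of which 33.1% were detected at a median of 213 CPM. Mir181c and Mir181d belong to this group and lay above that median. Genes with both shared and unique arms numbered 53, of which 60.4% were detected at a median of 45.2 CPM. The other 4 members belong here, and Mir181a-1, Mir181b-2 and Mir181a-2 lay above that median while Mir181b-1 lay below it. A further group of 44 genes has every arm shared, and 15.9% of them were detected.

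Between the libraries, 3 of the 6 members differed by an exact binomial test of their reads (Benjamini-Hochberg adjusted over the 347 detected genes), beside 47.0% of all detected genes, so the members' share is near the background. Such a test compares these 2 libraries against counting error alone and says nothing of conditions. Of these, 2 members were higher in replicate 1, where 16.4% of detected genes were, and 1 was higher in replicate 2, where 30.5% were. The members' median log2 of replicate 1 over replicate 2 was 0.11, beside -0.05 over all detected genes.

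Mir181b-2 had the largest difference of the 6, at 1.33-fold higher in replicate 1 (1.28 to 1.39, adjusted p = 2.68e-44, exact binomial test). Mir181d, on another chromosome, was 1.16-fold higher in replicate 1 (1.13 to 1.19, adjusted p = 3.66e-33, exact binomial test). Mir181a-1 was higher in replicate 2, by 1.11-fold (1.08 to 1.15, adjusted p = 9.93e-11, exact binomial test). All 3 differences are under 1.5-fold, and none passed the exact test of edgeR run at a common dispersion, where the adjusted p was 1 for each. That dispersion is estimated from these same libraries, so the differences under test also enter it, which limits what the test can find.

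The remaining members did not pass. Mir181c was at a ratio of 1.00 (0.985 to 1.02, adjusted p = 0.766, exact binomial test), yet it passed with edgeR's TMM factors (log2 ratio 0.04, adjusted p = 0.00755, exact binomial test) and with DESeq2's size factors (0.06, adjusted p = 0.000196). Mir181b-1 had a ratio of replicate 1 over replicate 2 of 1.19 (0.872 to 1.64, adjusted p = 0.406, exact binomial test), and its interval is wide because of its 118 and 64 counts. Mir181a-2 had a ratio of 0.851 (0.727 to 0.996, adjusted p = 0.0853, exact binomial test). Within both clusters of a and b genes, the a gene had a ratio below 1 and the b gene a ratio above 1, but only one gene of each cluster passed the test.

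**Figure D5:**
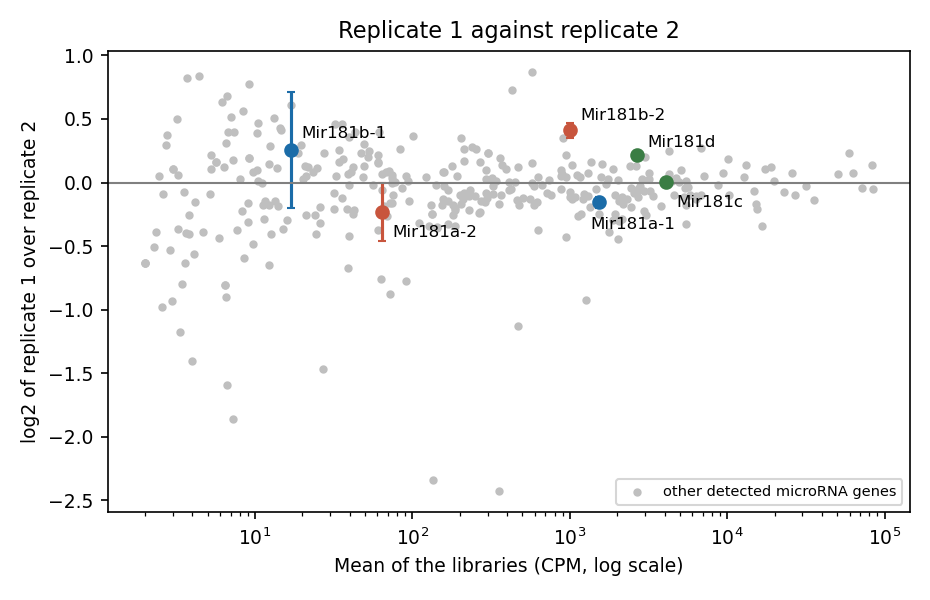
Log2 ratio of replicate 1 over replicate 2 against the mean CPM (log axis) of each detected microRNA gene, with the miR-181 genes coloured by cluster, bars for their 95% exact binomial intervals and other genes in grey. The members lie between -0.23 (Mir181a-2) and 0.41 (Mir181b-2), inside the range of all detected genes, -2.43 to 0.87.

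Summed by cluster, Mir181a-1/b-1 was lower in replicate 1, at a ratio of 0.900 (0.873 to 0.929). Mir181a-2/b-2 was higher there at 1.29 (1.25 to 1.35), and Mir181c/d was nearly level at 1.06 (1.05 to 1.08). The share of the family's counts taken by chromosome 1 was 15.3% in replicate 1 and 18.0% in replicate 2, and that taken by chromosome 2 was 12.5% and 10.2%. That of chromosome 8, 72.2% and 71.8%, had overlapping intervals (71.8 to 72.6 and 71.4 to 72.3). With one library per pool, a difference between pools and one between library preparations cannot be told apart. Liver, red cell, multiciliated and muscle microRNAs also differed between these libraries. Mir122 had the values above, Mir451a was at 747 and 408 CPM, and Mir449a at 14580 and 18445 CPM. Mir206 of skeletal muscle was at 294 and 643 CPM and Mir208a of heart muscle at 536 and 324 CPM, opposite differences that the sum of the muscle list does not show. Their part in the miR-181 differences was not tested.

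MicroRNAs of the cell types in which the family is best known were given beside it as context. Of the lymphoid and myeloid list, 10 of 12 genes matched and 9 were detected, led by Mir21a (8695 CPM ± 69.2, SD, n = 2), which many tissues also express, and Mir342 (2650 ± 168). Among those typical of blood cells, Mir142b was at 1149 and 1258 CPM, Mir223 of myeloid cells at 697 and 740, and Mir146 at 243 and 286. Nearly all reads counted for Mir142b lay on the opposite strand (7328 and 5187 reads), with 2 and 0 on its own strand. This level is therefore not that of Mir142b itself. Mir155 of activated immune cells was at 63.2 and 75.7 CPM, and Mir150 of mature lymphocytes at 39.5 and 40.0 CPM. In this list 1 gene was higher in replicate 1 and 6 were higher in replicate 2, beside 16.4% and 30.5% of all detected genes. Of the endothelial list, 13 of 14 genes matched and all 13 were detected, led by Mir126a (83199 ± 5768) and Mir99a (35435 ± 2391), with 1 gene higher in replicate 1 and 7 in replicate 2, beside the same background. Mir146 and Mir155 stand in both lists and were higher in replicate 2, so the counts of the lists overlap. Which cells the miR-181 reads came from was not measured.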

How the data were processed

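The authors deposited, per library, a table of raw read counts per microRNA gene with no normalization; per the file headers it refers to mm10 and GENCODE M4. Aligner, counter and trimming: not given in the sources used here. Counts without strand were used; that column equals the sum of the other 2 in all 1973 genes. Summary lines stayed out of totals. CPM, intervals (exact Clopper-Pearson, 95%) and the two-sided exact binomial test per gene with at least 10 counts in each library (threshold 0.05) were computed in Python 3.11.15 with scipy 1.17.1. The quasi-likelihood test needs replicates of a second group and was not used. Alternatives used edgeR 4.0.16 and DESeq2 1.42.0 in R 4.3.3. Names and positions come from GENCODE M21 on mm10 (1894 of 1973 identifiers matched), sequences from RefSeq. The test was checked on data simulated with counting error alone, which cannot show how it behaves when libraries differ by more than that. Named were all members, the 2 non-member genes nearest to each, and the 2 most abundant genes of each context list. Mir150, Mir155, Mir142b, Mir223, Mir146, Mir122, Mir451a, Mir449a, Mir206, Mir208a and the copies of Mir7, Mir103 and Mir194 were named after their values were seen. So were Mir299b and Gm25750. Members and lists were chosen with earlier results of these data known. The labels call the libraries biological replicates; whether the pools came from separate litters is not stated, so their spread may be technical, and the binomial p-values weigh counting error alone.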

Additional observations from a re-analysis of the deposited data

How the results depend on the processing

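Cluster levels of the miR-181 genes stayed within the spread of the libraries with TMM factors, DESeq2 size factors, CPM over detected genes and the sense-strand column. Leaving out either replicate cannot test this, because each of 2 libraries always lies within 1 SD of their mean. Over all reads in the table instead of gene counts, the clusters Mir181a-1/b-1, Mir181a-2/b-2 and Mir181c/d were at 763, 522 and 3308 reads per 1000000, and the family share was 0.459%; over gene counts plus reads that match several loci it was 0.574%. The opposite-strand column gave 0 CPM for each cluster, a family share of 0% and 0 members detected. The 6 folds within and between clusters kept their direction in every alternative run, but these runs do not test it. With 0 opposite-strand reads the sense-strand column gives the same folds, and adding 1 CPM to both sides cannot change a direction. Leaving out a replicate only gives the fold of the other library. Those folds ran from 78.5 to 104 for Mir181a-1 over Mir181b-1 and from 12.4 to 19.4 for Mir181b-2 over Mir181a-2. For Mir181c over Mir181d they ran from 1.43 to 1.65. The count of members that differ between libraries was 3 with other count minimums, 4 with TMM factors and 4 with DESeq2 size factors (Mir181c was added), and 0 with the exact test of edgeR at a common dispersion, where 0 passed unadjusted; that dispersion is estimated from these same libraries. At least 100 counts left 5 members detected, without Mir181b-1, whose 118 and 64 counts limit its folds. The study has a single group, so there was no second condition to pair. Genes were compared within each library, but 2 libraries are too few for a paired test.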
